A study of Mus musculus with 96 samples.

Results

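Formalin-fixed liver portions that were only heated before RNA isolation were compared with untreated portions of the same livers. The heat-only portions had 3 months in formalin and were then incubated for 18 hours at 55 °C without organocatalyst and isolated with an AllPrep kit. The untreated portions had the same 3 months in formalin and no incubation. All samples with these labels were taken, 12 heat-only and 12 untreated, and paired by the animal code in their titles, which gave 24 of the 96 samples in the series and all 12 animals. The animals were male B6C3F1 mice aged 10 to 11 weeks, 6 given phenobarbital at 600 ppm in the drinking water for 7 days and 6 controls at 0 ppm. Phenobarbital is a drug that activates the nuclear receptor CAR in hepatocytes. Frozen pieces of mixed lobes went into 10% buffered formalin at 4 °C and then into paraffin, so freezing before fixation is common to both states. The protocol text at hand does not name the kit for untreated portions. Heating and kit therefore cannot be told apart in what follows, and the difference is that between the 2 workups as labelled.

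Formalin adds hydroxymethyl groups to RNA bases and links RNA to protein, which hinders reverse transcription and the capture of RNA by beads or columns. Warming in aqueous buffer is known to reverse part of these adducts and crosslinks. RNA-seq libraries of total RNA depleted of ribosomal RNA hold messenger RNA, intron-containing precursor RNA, long noncoding RNA and the longer of the small structured RNAs, and the recovery of each class depends on the isolation.

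The liver identity of both states was plain from its markers: all 16 hepatocyte defining genes were tested, and their summed level ran from 38742 to 86587 CPM, read counts scaled to library size, in untreated and from 30790 to 69683 CPM in heat-only libraries. Cyp2b10, the standard target of CAR, lay between 819 and 1908 CPM in phenobarbital heat-only libraries and between 0 and 0.478 CPM in control heat-only libraries, and between 1194 and 1831 CPM against 0.109 and 3.96 CPM in untreated ones. Library totals ran from 1264563 to 10217453 counts in untreated and from 6445043 to 12229833 counts in heat-only portions. The lowest total belonged to the untreated control library 8A. The untreated phenobarbital library 18B stood apart by its small RNAs, so some of the results that rest on these libraries are given with and without them.

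Of 13283 genes tested with the animal as a block, 7420 differed between the portions at an adjusted p of 0.05 (55.9%). These p-values measure only the spread between these 12 animals. In heat-only portions 3822 genes were higher (28.8%) and 3598 were lower (27.1%). The median log2 fold change over all genes tested was 0.02. Among the 11492 genes above the low-count filter's cut-off of 1.07 CPM in at least 11 libraries of each state, 3264 were higher and 3479 lower, with a median of -0.01. Rises over 2-fold were found for 328 of the genes called and falls over 2-fold for 136, so most of the changes were small. In all 12 animals 1397 genes moved up and 1303 moved down. The CPM ranges of the 2 states did not overlap for 144 of the higher and 209 of the lower genes. With library totals alone as the scaling, the median over all genes moved up by 0.17 and 74.9% of 7870 calls were higher, against 51.5% with TMM scaling, so directions are relative to the bulk of genes.

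Among called genes of at least 5 CPM in 1 state that moved the same way in all 12 animals, with predicted genes and pseudogenes passed over, the 10 deepest falls were those of the Y RNAs Rny1 and Rny3, short RNAs bound by the Ro60 protein, and of small nucleolar RNAs. The following GRCm38 sequences, from GENCODE M21 transcripts, are shown because they are the kind of molecule on which the workups differed most: all are between 102 and 148 bases long and fold on themselves. In the Y RNAs, at chr6:47788069-47788180 on the minus strand and chr6:47781624-47781725 on the plus strand, capitals mark the longest stretch that the pair share, 12 bases. In Snord15a, at chr7:99482785-99482932 on the minus strand, capitals mark the box C letters TGATGA and the last box D letters CTGA, the elements that a box C/D RNA needs to guide 2'-O-methylation. In Snora21, at chr11:97781639-97781775 on the minus strand, capitals mark the ACA of box H/ACA RNAs, which guide pseudouridylation.
Rny1: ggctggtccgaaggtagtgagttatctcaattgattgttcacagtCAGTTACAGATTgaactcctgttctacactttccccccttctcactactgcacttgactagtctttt
Rny3: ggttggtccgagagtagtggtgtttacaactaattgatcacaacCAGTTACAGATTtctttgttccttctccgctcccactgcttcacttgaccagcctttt
Snord15a: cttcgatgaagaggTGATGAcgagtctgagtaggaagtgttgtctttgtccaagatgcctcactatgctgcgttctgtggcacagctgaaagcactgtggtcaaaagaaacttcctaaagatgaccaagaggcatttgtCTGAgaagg
Snora21: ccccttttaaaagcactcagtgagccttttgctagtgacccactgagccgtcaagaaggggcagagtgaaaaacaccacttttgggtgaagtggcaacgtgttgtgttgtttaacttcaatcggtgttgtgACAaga

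Rny1 was at 31.9, 116 and 402 CPM (lowest, median and highest) in untreated portions, at 4.75, 6.65 and 11.0 CPM in heat-only portions, and at 4.25, 8.64 and 13.6 CPM in frozen portions. The untreated libraries were all above the heat-only ones, which lay in the same range as the frozen ones. Its log2 fold change, heat-only minus untreated, was -4.25 ± 0.20 (SE), with an adjusted p of 1.88e-13 in edgeR's quasi-likelihood test, and -4.09 without animal 18B.

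Rny3 stood at 80.9, 223 and 868 CPM in untreated, 9.74, 14.6 and 24.8 CPM in heat-only and 8.58, 18.4 and 31.9 CPM in frozen portions. Again every untreated library exceeded every heat-only library, while heat-only and frozen overlapped. The log2 fold change was -4.05 ± 0.21 (adjusted p = 1.47e-12), and -3.86 without 18B. Vaultrc5, the RNA of the vault particle, fell by 2.94 ± 0.20 on the log2 scale, and Terc, the template RNA of telomerase, by 1.69 ± 0.13, each in 12 of 12 animals. Rpph1, the catalytic RNA of RNase P, fell by 0.69 ± 0.12 in 11 of 12 animals. All 7 members tested of the list of short structural noncoding RNAs that holds these 5 genes were lower, with a median of -1.69.

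Snord15a was at 8.85, 27.0 and 176 CPM in untreated portions, against 0.715, 2.75 and 4.98 CPM in heat-only and 4.22, 5.05 and 6.63 CPM in frozen portions. The untreated and heat-only libraries did not overlap, and most heat-only libraries were below the frozen ones. Its log2 fold change was -3.71 ± 0.32 (adjusted p = 2.95e-09), and -3.42 without 18B, whose untreated library was the highest.

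Snora21 was at 6.83, 15.1 and 62.8 CPM in untreated, 1.04, 2.02 and 2.89 CPM in heat-only and 0.706, 1.69 and 2.35 CPM in frozen portions. The untreated libraries were again the high ones and did not overlap with the heat-only ones. The log2 fold change was -3.33 ± 0.21 (adjusted p = 2.61e-11), and -3.12 without 18B. The other small nucleolar RNAs among the 10 largest falls were Snord16a at -4.72 ± 0.23, Snora41 at -3.87 ± 0.25, Snora68 at -3.46 ± 0.21, Snord13 at -3.43 ± 0.24, Snora69 at -3.41 ± 0.29 and Snora28 at -3.14 ± 0.23, each lower in 12 of 12 animals. Snord13 assists acetylation of 18S ribosomal RNA, and the rest guide modification of ribosomal RNA. Snord16a, Snord15a, Snora21, Snora69, Snora41 and Snora28 lie inside the host genes Rpl4, Rps3, Rpl23, Rpl39, Eef1b2 and Eif5, in that order, on the same strand, so reads from the host precursor could be counted with them. The Y RNA genes overlap no other annotated gene.

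**Figure D1:**
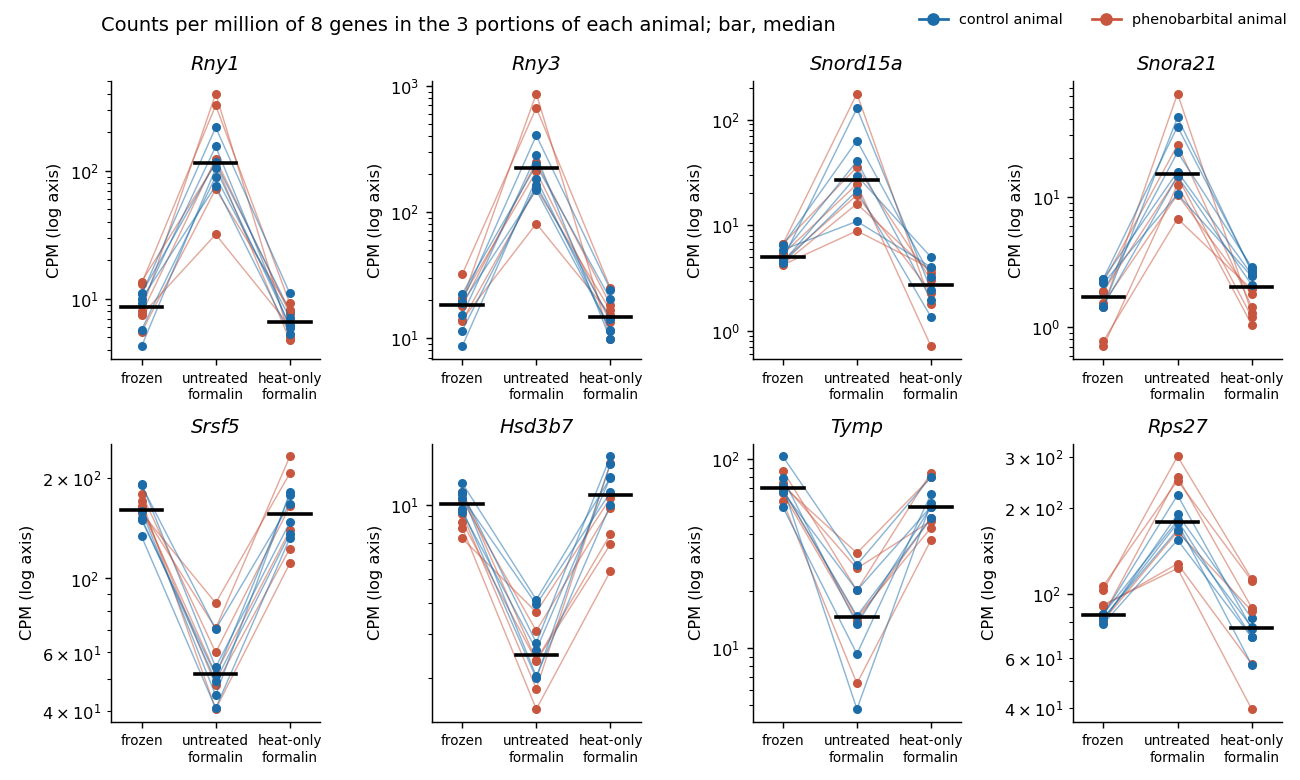
CPM on a log axis for 8 genes in the frozen, untreated formalin and heat-only formalin portion of each animal; lines join the 3 portions of an animal, colours give the treatment and black bars the median of 12. For Rny1, Rny3, Snord15a and Snora21 the untreated portions are above both others (median 116 CPM for Rny1, against 6.65 CPM heat-only), for Srsf5, Hsd3b7 and Tymp they are below both, and for Rps27 they are above both.

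Of 1507 genes on the list of small nucleolar RNAs, 59 passed the low-count filter, and of these 55 were lower, 2 were higher and the median log2 fold change was -2.84. Because a gene could pass that filter through the untreated libraries alone, 34 of the 59 that were above the cut-off of 1.07 CPM in at least 11 libraries of each state were also counted: 33 were lower and none was higher. Summed over all 1507 genes, with no filter, the level ran from 1166 to 11159 CPM in untreated, from 251 to 640 CPM in heat-only and from 681 to 1101 CPM in frozen libraries. The heat-only libraries lay below all untreated and all frozen libraries. The highest untreated value was that of 18B, and the next was 5562 CPM. Gm23722 and Gm23340, named after their values were seen, were the 2 that rose, by 0.87 and 1.70.

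The other small RNA classes followed the same direction. Of 22 spliceosomal small nuclear RNAs tested, 16 were lower and 3 were higher (median -2.11), and summed over the 1385 listed genes the untreated libraries, from 752 to 3869 CPM, did not overlap the heat-only ones, from 299 to 547 CPM. Rnu11 and Rnu12, the U11 and U12 RNAs of the minor spliceosome, fell by 2.67 ± 0.18 and 1.50 ± 0.21 on the log2 scale. The 3 that rose, named after their values were seen, were the predicted genes Gm22043, Gm24060 and Gm24056, at 0.77, 0.99 and 1.00. Of the 22, 12 were above the cut-off in each state, of which 11 were lower and none was higher, so the 3 that rose were not among them. Of 11 Cajal body RNAs, which guide modification of the spliceosomal RNAs, 9 were lower and 2 were not called (median -1.47). Of the 7 above the cut-off in each state on its own, 6 were lower and none was higher (median -1.44). Scarna6 was at -2.48 ± 0.16 and Scarna13 at -1.47 ± 0.14, while the longer Scarna2 stood at -0.18 ± 0.12 (adjusted p = 0.224).

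Not all short transcripts fell. MicroRNA hairpin genes had 8 of 15 members tested higher and 1 lower, with a median of 0.67. Mir6240 stood at 0.88 ± 0.14 and Mir6353, which lies inside Pid1, at 1.13 ± 0.21, and Mir703 was the one that fell, by 0.81 ± 0.27. Only 7 of these genes were above the cut-off in each state on its own, 3 of them higher and 1 lower, with a median of 0.15.

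By length of the longest annotated transcript, genes of 100 to 149 bases had a median log2 fold change of -2.84 (73 genes, 60 lower and 6 higher), and genes of 150 to 199 bases one of -1.50 (17 genes, 13 lower and 1 higher). Below 100 bases the median was -0.46 (25 genes), and from 200 to 299 bases it was -0.25 (28 genes). In every class of 300 bases or more the median lay between -0.01 and 0.07. Among genes above the cut-off in each state on its own, the medians were -0.47 under 100 bases (15 genes), -2.95 at 100 to 149 (37 genes, 34 lower and 1 higher), -1.70 at 150 to 199 (11 genes), -1.66 at 200 to 299 (14 genes), -0.46 at 300 to 499 (48 genes) and -0.15 at 500 to 999 (415 genes). From 1000 bases on they lay between -0.04 and 0.04. All genes in the 4 classes under 300 bases were noncoding. The letters TGATGA followed at least 40 bases later by CTGA, read on the sense strand, were held by 11 of the 59 small nucleolar RNAs tested (18.6%) and by 6.33% of 79 other genes tested with transcripts of 60 to 300 bases. The letters ACA exactly 3 bases from the 3′ end were held by 40 of the 59 (67.8%) and by 6.33% of the 79. All 11 with the first pattern and 38 of the 40 with the second were lower, beside 55 of all 59. Only 34 of the 59 were above the cut-off in each state on its own, and the pattern counts were not limited to these. Of the 79 other genes, 5 held the first pattern (3 lower, 2 higher) and 5 the second (4 lower, 0 higher).

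Mitochondrially encoded RNAs were high in formalin and mostly lower in heat-only than in untreated portions. mt-Nd1, a subunit of respiratory complex I, was at 9260, 15199 and 22477 CPM in untreated, 4999.7, 7610 and 17881 CPM in heat-only and 2221, 2857 and 3843 CPM in frozen portions. The heat-only libraries overlapped the untreated ones and stayed above every frozen one. Its log2 fold change was -0.98 ± 0.17 (adjusted p = 3.02e-05), lower in 10 of 12 animals. Of 7 mitochondrial protein genes tested 5 fell and none rose, with a median of -0.56: mt-Nd1, mt-Nd2 at -0.97 ± 0.18, mt-Cytb, the cytochrome of complex III, at -0.64 ± 0.16, mt-Nd4 at -0.56 ± 0.19, and mt-Nd5, named after its value was seen, at -0.47 ± 0.18. mt-Co1, the catalytic subunit of cytochrome c oxidase, stood at -0.17 ± 0.14 (adjusted p = 0.301).

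Of 8 mitochondrial transfer RNAs tested, 6 fell and none rose, with a median of -1.09. Among the 7 above the cut-off in each state on its own, 5 fell and none rose (median -0.97). mt-Tt, the threonine tRNA, was at 9.90, 14.9 and 31.1 CPM in untreated and 2.71, 4.97 and 6.62 CPM in heat-only portions. These ranges did not overlap, and the log2 fold change was -1.93 ± 0.14 (adjusted p = 1.15e-10). The methionine and isoleucine tRNAs mt-Tm and mt-Ti fell by 1.28 ± 0.14 and 1.20 ± 0.15 in 12 of 12 animals each, the tryptophan tRNA mt-Tw by 0.97 ± 0.18 in 10 of 12, and the glutamate tRNA mt-Te stood at -0.61 ± 0.34 (adjusted p = 0.135).

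The 10 largest rises, chosen by the same rule, were those of protein-coding genes. Srsf5, an SR protein of the splicing machinery, was at 40.6, 51.6 and 84.5 CPM in untreated, 111, 156 and 232 CPM in heat-only and 134, 161 and 193 CPM in frozen portions. All heat-only libraries were above all untreated ones and spanned the frozen range. The log2 fold change was 1.50 ± 0.07 (adjusted p = 1.16e-13).

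Hsd3b7, an enzyme of bile acid synthesis, was at 1.50, 2.48 and 4.14 CPM in untreated, 5.40, 10.9 and 15.7 CPM in heat-only and 7.32, 10.0 and 12.2 CPM in frozen portions. The heat-only libraries again lay above the untreated ones and around the frozen ones. The log2 fold change was 2.01 ± 0.15 (adjusted p = 1.99e-10). Tymp, thymidine phosphorylase, was at 4.75, 14.7 and 31.8 CPM in untreated and 37.3, 56.0 and 84.7 CPM in heat-only portions, without overlap, and rose by 1.77 ± 0.13.

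The other genes among the 10 largest rises were Adam4, a member of the ADAM metalloprotease family, at 2.29 ± 0.23, the atypical MAP kinase gene Mapk15 at 1.92 ± 0.20, the zinc finger gene Zfp692 at 1.69 ± 0.21, Ggnbp1 at 1.64 ± 0.14, the deubiquitinase gene Josd2 at 1.60 ± 0.09, Stk19 at 1.54 ± 0.14 and the transporter gene Mfsd7a at 1.52 ± 0.18. Each was higher in 12 of 12 animals. In frozen portions, Adam4 and Mapk15 had medians of 6.41 and 5.03 CPM, near their heat-only medians of 7.28 and 4.83 CPM, whereas Zfp692, Ggnbp1, Josd2, Stk19 and Mfsd7a had heat-only medians above their frozen ones (8.16 against 4.05 CPM for Zfp692, 34.1 against 18.1 CPM for Josd2). Adam4, Hsd3b7, Tymp, Ggnbp1 and Josd2 overlap other annotated genes, among them Cox16, Sco2, Ncaph2 and Bak1, and the strand setting of the counting is not known here, so their reads may be shared.

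Long noncoding RNAs that stay in the nucleus or host small nucleolar RNAs were mostly higher in heat-only portions: 16 of 26 tested rose, 2 fell and the median was 0.61. Of the 22 above the cut-off in each state on its own, 12 rose and 2 fell, with a median of 0.47. Malat1, a nuclear speckle RNA, was at 4101, 6408 and 8171 CPM in untreated, 6547, 11044 and 15332 CPM in heat-only and 7836, 10070 and 10890 CPM in frozen portions. The heat-only and untreated ranges overlapped, but every animal was higher in its heat-only portion, with a log2 fold change of 0.79 ± 0.08 (adjusted p = 2.72e-08). Neat1, the scaffold of paraspeckles, rose by 0.99 ± 0.09, Firre by 1.09 ± 0.07 and the imprinted Meg3 by 1.31 ± 0.14, each in 12 of 12 animals. Tug1 stood at -0.17 ± 0.08 (adjusted p = 0.0589). The pair that fell, named after their values were seen, were the small nucleolar RNA hosts Snhg6 at -0.83 ± 0.11 and Snhg3 at -0.45 ± 0.15.

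Gene models in introns and unverified transcripts were also mostly higher where called. Of 95 sense-intronic genes tested 55 were higher and 1 was lower (median 0.57), of 540 genes of the class TEC, transcripts that GENCODE holds for experimental testing, 297 were higher and 8 lower (median 0.53), and of 165 antisense genes 70 were higher and 6 lower (median 0.42). Among those above the cut-off in each state on its own, 29 of 45 sense-intronic genes were higher and 1 lower (median 0.48), 198 of 299 TEC genes were higher and 4 lower (median 0.49), and 29 of 77 antisense genes were higher and 3 lower (median 0.28). Among 173 lincRNA genes 77 were higher and 17 lower, and among the 94 above the cut-off in each state 43 were higher and 15 lower. Over the 11724 protein-coding genes, 3095 were higher and 3412 lower, with a median of -0.01.

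**Figure D2:**
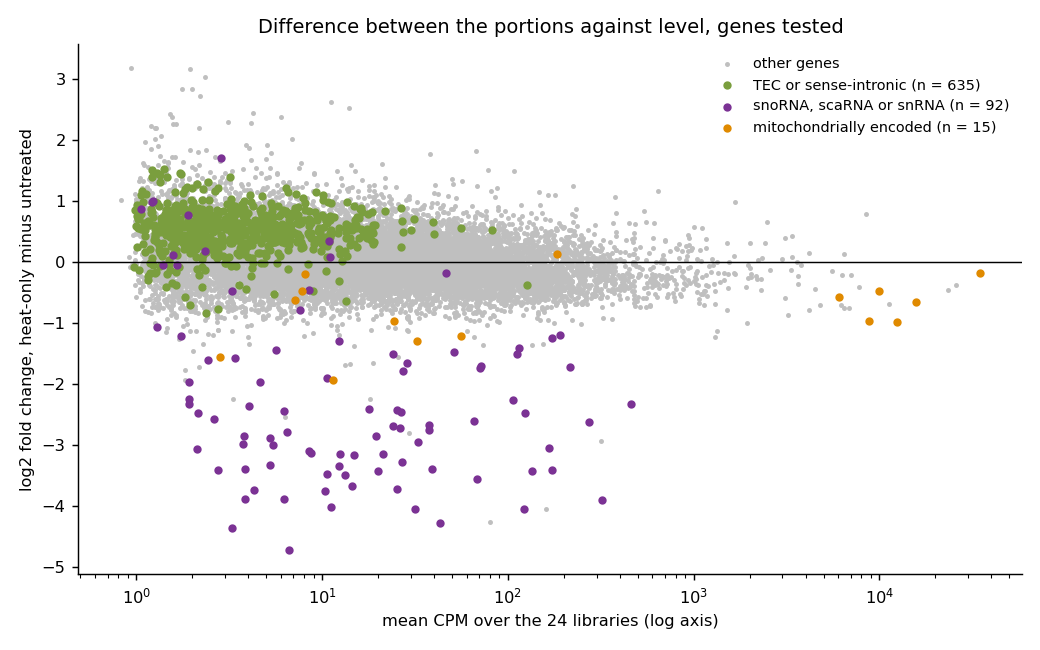
Log2 fold change, heat-only minus untreated, against the mean CPM over the 24 libraries on a log axis, 1 point per gene tested, with 3 classes coloured. The small nucleolar, Cajal body and small nuclear RNAs reach down to -4.72, the mitochondrially encoded genes lie mostly below 0, and the TEC and sense-intronic genes lie mostly above 0.

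Genes of the splicing machinery were a further group on the high side. Of 54 SR protein and spliceosome genes, 34 rose and 4 fell, with a median of 0.36. Beside Srsf5, Pnisr, an SR-related protein, rose by 1.07 ± 0.08, the SR protein kinase Clk4 by 0.88 ± 0.07 and Hnrnpa2b1, which packages pre-mRNA, by 0.54 ± 0.05, each in 12 of 12 animals. Prpf8, the scaffold of the spliceosome's core, stood at -0.09 ± 0.07 (adjusted p = 0.339). The 4 that fell, named after their values were seen, were Snrpg at -0.48 ± 0.15, Snrpe at -0.41 ± 0.10, Srsf1 at -0.22 ± 0.07 and Hnrnpc at -0.16 ± 0.05, which became 0.00865 with library totals alone. Snrpg and Snrpe encode small ring proteins of the spliceosomal core.

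On a list of very large genes with long transcripts, 28 of 39 tested rose and 2 fell, with a median of 0.31. The list was not typical of its kind. Among all 725 genes tested with transcripts of 8000 bases or more, 247 were higher and 188 lower (median 0.05). In the tenth of protein-coding genes with the widest gene span, 27.7% were higher and 22.7% lower (median 0.02). Kmt2d, a histone methyltransferase, rose by 0.59 ± 0.06, Golgb1, a Golgi tether, by 0.56 ± 0.06, and the kinase anchors Akap9 and Akap13 by 0.49 ± 0.06 and 0.41 ± 0.05, while Fasn, fatty acid synthase, stood at 0.19 ± 0.08 (adjusted p = 0.052). Those that fell were the very abundant liver genes Apob, named after its value was seen, at -0.45 ± 0.08 and Cps1 at -0.23 ± 0.07. The summed level of the list, to which abundant genes contribute most, was lower in heat-only portions in 11 of 12 animals.

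Cytosolic ribosomal protein genes moved the other way, with 71 of 80 lower, 1 higher and a median of -0.46. Rps27 was at 123, 179 and 302 CPM in untreated, 39.8, 76.4 and 113 CPM in heat-only and 78.9, 84.8 and 107 CPM in frozen portions. The untreated libraries were all above the heat-only ones, which spanned the frozen range, and the log2 fold change was -1.35 ± 0.06 (adjusted p = 1.88e-13). Rpl31 fell by 1.22 ± 0.05, Rps23 by 0.97 ± 0.05, Rpl17 by 0.92 ± 0.05 and Rplp0, a protein of the ribosomal stalk, by 0.32 ± 0.06, each in 12 of 12 animals. Rpl7 stood at -0.14 ± 0.07 (adjusted p = 0.0754), and Rps19, named after its value was seen, rose by 0.27 ± 0.06. Ribosomal protein genes have many near-identical pseudogene copies, so the counting may divide their reads.

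Among 87 nuclear-encoded respiratory chain subunits, 40 fell and 13 rose with a median of -0.13, which became 0.04 with library totals alone. Cox8a fell by 0.70 ± 0.06, Sdhd by 0.66 ± 0.06, Cox6c by 0.65 ± 0.06 and Ndufb4 by 1.03 ± 0.10, each in 12 of 12 animals, whereas Atp5b, the catalytic subunit of ATP synthase, stood at 0.07 ± 0.09 (adjusted p = 0.543).

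Markers of sinusoidal endothelium, macrophages and stellate cells had more members lower than higher in heat-only portions. Fewer cells of a type and less RNA per cell cannot be told apart in such bulk samples, and a part played by RNA recovery was not tested. With library totals alone the endothelial, macrophage and stellate lists had 18, 9 and 12 members lower and 1, 2 and 0 higher. Of 25 markers of sinusoidal endothelium, the fenestrated lining of liver capillaries, 20 fell and 1 rose (median -0.55). Fcgr2b, an Fc receptor of these cells, was at 67.3, 81.5 and 98.6 CPM in untreated, 33.6, 44.5 and 62.8 CPM in heat-only and 42.0, 45.8 and 50.1 CPM in frozen portions. The untreated libraries were above all heat-only and all frozen libraries, and the log2 fold change was -0.95 ± 0.07 (adjusted p = 2.2e-10).

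The DNase gene Dnase1l3 fell by 1.03 ± 0.08, Ehd3 by 0.87 ± 0.07 and the phosphatase gene Ptprb by 0.69 ± 0.06, each in 12 of 12 animals. The scavenger receptor Stab2, also a defining gene of this lining, stood at 0.05 ± 0.10 (adjusted p = 0.665), and Egfl7, named after its value was seen, rose by 0.33 ± 0.12. The summed level of the 25 markers ran from 1391 to 2199 CPM in untreated, from 840 to 1417 CPM in heat-only and from 1380 to 1799 CPM in frozen portions. It was lower in the heat-only than in the untreated portion in 12 of 12 animals.

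Of 21 Kupffer cell and macrophage markers tested, 15 fell and none rose (median -0.40). Fcer1g, the signalling chain of Fc receptors, was at 11.4, 17.3 and 42.1 CPM in untreated, 4.26, 6.22 and 10.4 CPM in heat-only and 5.30, 6.31 and 9.48 CPM in frozen portions. Untreated and heat-only libraries did not overlap, and the log2 fold change was -1.67 ± 0.11 (adjusted p = 5.59e-11). The complement receptor Vsig4 fell by 0.75 ± 0.06, lysozyme Lyz2 by 0.83 ± 0.09 and cathepsin S Ctss by 0.54 ± 0.07, but the Kupffer cell lectin Clec4f stood at 0.15 ± 0.11 (adjusted p = 0.286). The summed level of the list was lower in 12 of 12 animals, with ranges of 436 to 1192 CPM untreated and 337 to 928 CPM heat-only that overlapped.

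Of 28 stellate cell and fibroblast markers tested 15 fell and none rose (median -0.27). The matrix protein gene Sparc fell by 0.96 ± 0.07, the collectin Colec10 by 0.95 ± 0.07, the pericyte regulator Rgs5 by 0.94 ± 0.09 and the protease inhibitor Timp3 by 0.79 ± 0.07, each in 12 of 12 animals, and collagen Col3a1 stood at -0.16 ± 0.11 (adjusted p = 0.223). The summed level, from 1168 to 1763 CPM untreated and from 715 to 1113 CPM heat-only, did not overlap between the states. The 4 erythroid transcripts that fell, of 11 tested, were the globins Hbb-bs at -1.35 ± 0.09 and Hbb-bt at -1.04 ± 0.13 and, named after their values were seen, the ferrochelatase gene Fech at -0.44 ± 0.05 and Bsg at -0.23 ± 0.05, and 7 were not called. Of 5 lymphocyte and neutrophil markers tested 2 fell and 3 were not called (median -0.30). For comparison with these lists, 27.1% of all genes tested were lower and 28.8% higher.

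Of 7 cholangiocyte markers tested, 4 rose and none fell. These were the keratins Krt18 at 0.63 ± 0.07 and Krt8 at 0.66 ± 0.11, Pkhd1, a protein of the primary cilium, at 0.67 ± 0.08 and the transcription factor Onecut1 at 0.41 ± 0.13. Hepatocytes also express Krt18, Krt8 and Onecut1, so these are not specific to bile ducts. Of the 16 genes of the list 9 were too low to be tested.

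Hepatocyte genes went both ways. Of 16 hepatocyte defining markers 8 fell and 3 rose, with a median of -0.17 that became 0.00 with library totals alone. Alb, the main plasma protein, was at 12854, 27215 and 46971 CPM in untreated and 9560, 25673 and 35585 CPM in heat-only portions, ranges that overlapped almost wholly, and fell by 0.36 ± 0.10 (adjusted p = 0.00408) in 11 of 12 animals. The call for Alb was lost without the animal block (adjusted p = 0.0749). Apoa1, the main protein of high density lipoprotein, went up, from 1278, 1717 and 2903 CPM to 1758, 3330 and 3831 CPM, by 0.66 ± 0.11 (adjusted p = 1.34e-05) in 11 of 12 animals. The other pair that rose, named after their values were seen, were Fabp1, a fatty acid binding protein, at 0.38 ± 0.09 and Ass1, of the urea cycle, at 0.22 ± 0.09.

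Of 61 secreted plasma protein genes 22 fell and 15 rose (median -0.04, and 0.14 with library totals alone), where over all genes tested 27.1% were lower and 28.8% higher. Mup3, a major urinary protein, fell by 0.75 ± 0.07, transferrin Trf by 0.71 ± 0.07, the clotting factor F9 by 0.58 ± 0.06 and Serpina1a by 0.52 ± 0.06, each in 12 of 12 animals, and complement C3 stood at 0.13 ± 0.09 (adjusted p = 0.232). The Mup and Serpina1 families hold near-identical copies. Of the 2 genes often used as references, Actb, beta-actin, fell by 0.34 ± 0.06 and Gapdh, of glycolysis, rose by 0.42 ± 0.09.

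Of 17 CYP2B, CYP2C and CYP3A genes tested, drug-metabolising enzymes that include the main targets of phenobarbital, 7 fell and 3 rose, with a median of -0.25. The shares over all genes tested were 27.1% lower and 28.8% higher. Cyp2b10 stood at -0.25 ± 0.15 (adjusted p = 0.166) and Cyp3a11, the main CYP3A enzyme, at -0.12 ± 0.08 (adjusted p = 0.179). Cyp2c50 fell by 0.36 ± 0.06, while Cyp3a59 rose by 0.68 ± 0.08 in 12 of 12 animals, and Cyp3a25 and the pseudogene Cyp2c53-ps, named after their values were seen, rose by 0.39 ± 0.07 and 0.54 ± 0.11. Among other P450 genes Cyp2j9 rose by 1.17 ± 0.11, and Cyp2e1, an abundant constitutive P450, stood at -0.12 ± 0.07 (adjusted p = 0.12). Of 48 conjugation enzyme genes 23 fell and 8 rose (median -0.17), against 13 lower and 12 higher with library totals alone (median -0.01), with the glutathione transferase Gstt1 at -0.84 ± 0.06, Ugt3a2 at -0.72 ± 0.06 and the sulfotransferase Sult5a1 at 0.87 ± 0.09.

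Of 44 urea cycle and amino acid breakdown genes, 16 rose and 16 fell, and with library totals alone 26 were higher and 6 lower. Prodh2, of hydroxyproline breakdown, was at 28.7, 50.1 and 78.8 CPM in untreated, 81.2, 134 and 148 CPM in heat-only and 103, 129 and 159 CPM in frozen portions. All heat-only libraries exceeded all untreated ones, and the gene rose by 1.22 ± 0.08 (adjusted p = 3.43e-11). The serine dehydratase Sds and the formiminotransferase Ftcd rose by 0.93 ± 0.10 and 0.61 ± 0.06. Of 36 genes of cholesterol and fatty acid synthesis 13 fell and 8 rose (median -0.05, and 0.12 with library totals alone), with the desaturase Scd1 at -0.69 ± 0.07 and the elongase Elovl5 at -0.61 ± 0.06. Of 42 of fatty acid oxidation 13 fell and 12 rose (4 lower and 20 higher with library totals alone), with the uptake receptor Cd36 at -0.77 ± 0.07 and the peroxisomal thiolase Acaa1a at 0.75 ± 0.07. Over all genes tested 28.8% were higher and 27.1% lower.

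Of 31 heat shock genes, which encode protein-folding chaperones, 11 fell and 2 rose (median -0.06, and 0.11 with library totals alone). Among all genes tested 27.1% were lower and 28.8% higher. Their list was drawn up as cytosolic but also holds the mitochondrial Hspe1. The inducible Hspa1b was at 3.32, 6.75 and 14.1 CPM in untreated and 0.956, 4.20 and 6.10 CPM in heat-only portions and fell by 0.91 ± 0.15 (adjusted p = 1.38e-05) in 12 of 12 animals, with overlapping ranges. Hspe1, the mitochondrial co-chaperone, fell by 0.90 ± 0.06, Hspa13 by 0.52 ± 0.06 and Dnaja1 by 0.36 ± 0.05, and Hspa8 stood at -0.08 ± 0.07 (adjusted p = 0.304). Hsp90ab1 and Cct3, named after their values were seen, rose by 0.16 ± 0.06 and 0.29 ± 0.09.

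Of 18 circadian clock genes 8 rose and 3 fell (median 0.19), where 28.8% of all genes tested were higher and 27.1% lower. The rises included Dbp at 1.26 ± 0.20, Per3 at 0.89 ± 0.10, Tef at 0.53 ± 0.06 and Cry2 at 0.46 ± 0.07. The falls, named after their values were seen, were Rora at -0.43 ± 0.08, Hlf at -0.35 ± 0.07 and Clock at -0.23 ± 0.07. The summed level of the clock list was lower in heat-only portions in 9 animals and higher in 3. Of 24 metallothionein and iron handling genes 10 fell and 6 rose (median -0.16, and 0.02 with library totals alone): heme oxygenase Hmox1 fell by 0.92 ± 0.08, metallothionein Mt1 by 0.77 ± 0.07, and Ppox, of heme synthesis, rose by 0.88 ± 0.10.

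**Figure D3:**
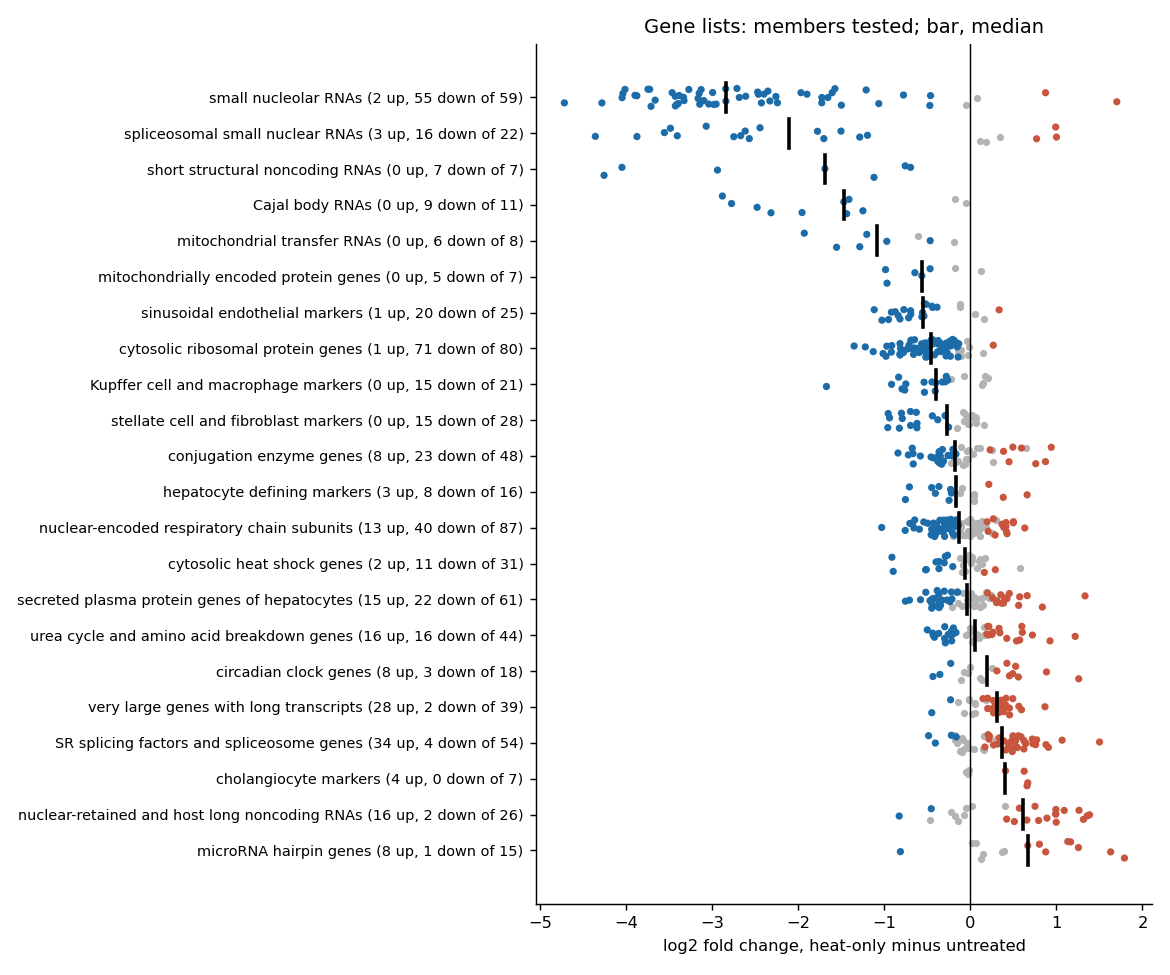
Log2 fold change, heat-only minus untreated, of the members tested of 22 gene lists; each point is a gene, red called higher, blue called lower and grey not called, and black bars are medians. Small nucleolar RNAs have a median of -2.84 and sinusoidal endothelial markers of -0.55, against 0.61 for nuclear-retained and host long noncoding RNAs and 0.36 for splicing genes.

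Protein-coding genes were sorted by features of their longest transcript that played no part in the choice of samples. In the tenth with the least thymine, 12.6 to 20.5% of bases, 53.5% of genes were higher and 7.25% lower (1172 genes, median 0.31). In the tenth with the most thymine, 30.0 to 43.7% of bases, 14.2% were higher and 50% lower (median -0.21). Across 11719 protein-coding genes the fold change had a Pearson r of -0.35 (Spearman rho -0.37) with the thymine share, 0.32 (0.32) with the guanine share, 0.27 (0.28) with GC content and 0.21 (0.24) with the number of exons. With transcript length r was 0.04 (0.06). These describe genes of the same libraries, which are not independent replicates, and base shares are tied to each other.

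Genes with 24 or more exons were higher in 47.2% and lower in 11.6% of cases, and genes with 3 or 4 exons were higher in 16.3% and lower in 37.5%. Highly expressed genes tended down, with an r of -0.21 (rho -0.20) between the fold change and the mean log2 level, which shares the counts it is compared with.

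**Figure D4:**
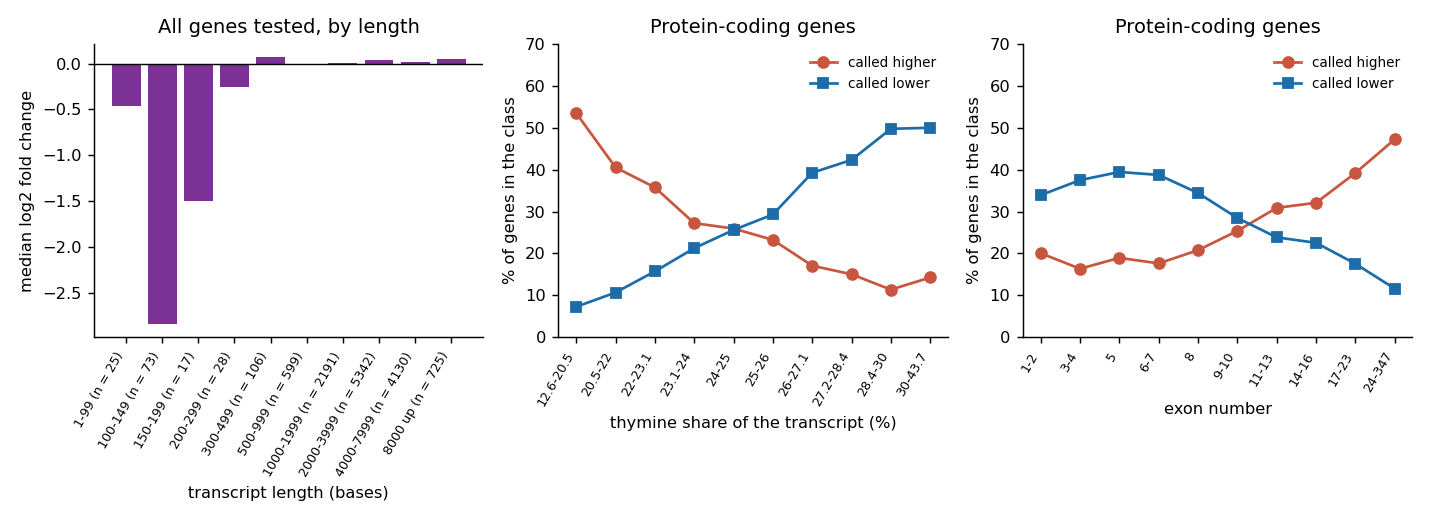
Left, median log2 fold change, heat-only minus untreated, by length class of the longest transcript with the number of genes; centre and right, percent of protein-coding genes called higher and lower by 10 classes of thymine share and of exon number. The median is lowest, -2.84, at 100 to 149 bases; the share called lower rises from 7.25% to 50% with the thymine share, and the share called higher is largest, 47.2%, with 24 or more exons.

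Small noncoding RNA genes took 2.51% ± 1.01 (SD, n = 12) of counts in untreated and 1.38% ± 0.21 in heat-only portions, against 1.12% ± 0.09 in frozen ones. The share was lower in the heat-only portion in 11 of 12 animals (exact paired permutation test of sign changes, two-sided, adjusted p = 0.00293 over 9 measures). Without 18B the mean difference was -0.90 points instead of -1.13. Mitochondrial tRNA genes were lower in the same number of animals (adjusted p = 0.00293, same test).

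Long noncoding RNA genes took 1.66% ± 0.58 (SD, n = 12) of counts in untreated, 2.54% ± 0.52 in heat-only and 2.20% ± 0.26 in frozen portions. The share was higher in the heat-only portion in 11 of 12 animals (exact paired permutation test, adjusted p = 0.0033), with 8A, whose shallow untreated library had 3.21%, as the exception. At a common depth of 1264563 counts, 14634 ± 303 (SD, n = 12) genes were detected in untreated and 15471 ± 256 in heat-only portions, and every animal gained, by 837 genes on average (exact paired permutation test, adjusted p = 0.00293). Without 8A the gain was 773 genes. Frozen portions had 14756 ± 85 genes at that depth, from 14660 to 14962. Every heat-only library, from 14996 to 15877, was above all of them.

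Protein-coding genes took 95.3% of counts in both states. Totals were higher in heat-only portions in 10 of 12 animals (exact paired permutation test, adjusted p = 0.065). The 10 most abundant genes took 16.0% against 18.2% of counts (adjusted p = 0.0681 in the same exact test, with -2.90 points and 0.00527 without 18B). With any other animal left out, the adjusted p of this top-10 share in the exact test was 0.063 to 0.130. Over 5806 genes with at least 20 CPM in frozen liver, the median absolute log2 difference from the animal's own frozen portion was 0.41 ± 0.05 (SD, n = 12) in untreated and 0.36 ± 0.05 in heat-only portions. It was smaller in the heat-only portion in 10 of 12 animals (exact paired permutation test, p = 0.0557, adjusted p = 0.0716), and by 0.06 without 18B (adjusted p = 0.00586, exact test). With any other animal left out, the adjusted p of this distance in the exact test was 0.064 to 0.143. With mitochondrially encoded genes left out the difference was -0.0376 (adjusted p = 0.230, same test).

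The mitochondrial share of counts depended on the animal. It was 9.92% ± 2.41 (SD, n = 12) in untreated, 8.29% ± 3.56 in heat-only and 2.57% ± 0.41 in frozen portions. It was lower in the heat-only than in the untreated portion in 10 of 12 animals (exact paired permutation test, p = 0.23, adjusted p = 0.259). In the 6 control animals it fell from 9.43% ± 1.77 to 5.82% ± 0.90, in every one of them. In the 6 phenobarbital animals it was 10.4% ± 3.00 and 10.8% ± 3.52, with 18B rising from 6.69% to 16.5% and 20D from 6.92% to 9.81%. The change did not differ between the treatments beyond the spread of animals (exact permutation test over labels, p = 0.123, adjusted p = 0.461 over 9 measures). Without 18B the mean difference over the 11 animals left was -2.68 points (exact test, adjusted p = 0.0151). With any other animal left out, the adjusted p in that test was 0.180 to 0.463. Without 20B the treatments differed by 5.16 points (exact permutation test, unadjusted p = 0.0303). That was the lowest p with 1 animal left out, and the others ran from 0.0714 to 0.249 in the same test.

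**Figure D5:**
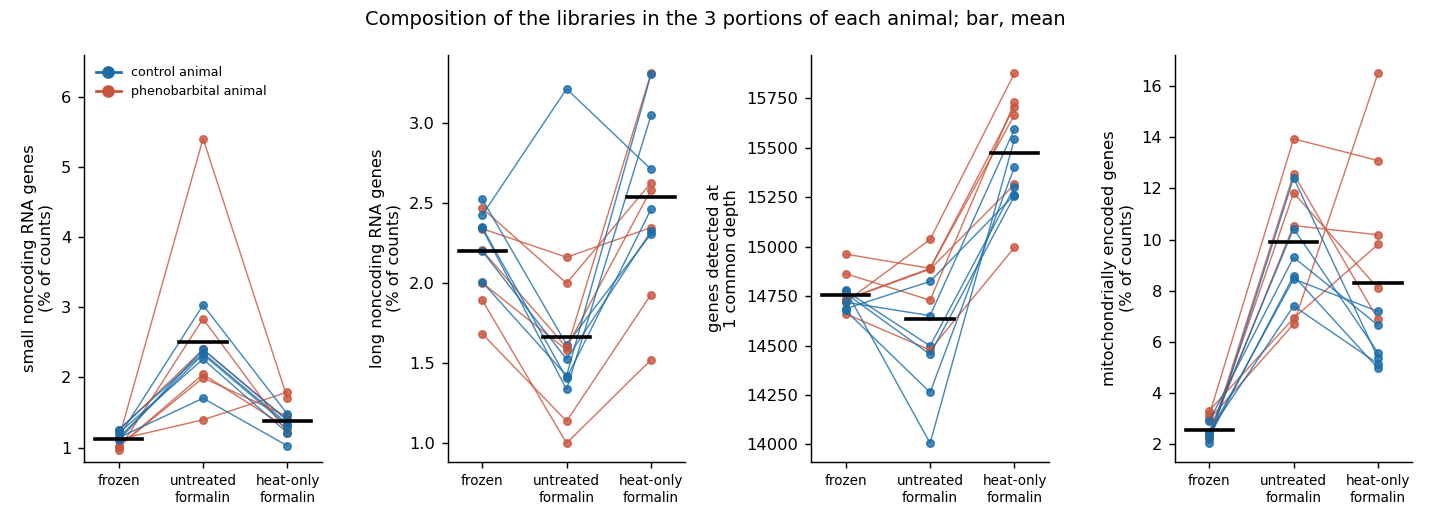
Share of small noncoding RNA genes, share of long noncoding RNA genes, genes detected at a common depth and share of mitochondrially encoded genes in the frozen, untreated and heat-only portion of each animal; lines join the portions of an animal and black bars are means of 12. Small noncoding RNA has a mean of 2.51% in untreated and 1.38% in heat-only portions, and long noncoding RNA 1.66% and 2.54%. The mitochondrial share is lower in heat-only portions in all 6 control animals but higher in 2 phenobarbital animals.

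Of 14130 genes tested for an interaction, 0 passed in edgeR's quasi-likelihood test (0%), where 631 had an unadjusted p under 0.05 and the smallest adjusted p was 0.948, and 0 passed in DESeq2, where 612 had an unadjusted p under 0.05. With no low-count filter 14 of 28193 genes passed in edgeR's test (smallest adjusted p = 4.12e-09). A p that misses the threshold does not show that the animals responded alike. Fitted apart, control animals gave 6181 calls and phenobarbital animals 4185 calls. None of the genes called both there and over all animals changed direction. Since these fits share libraries with the fit over all animals, this does not compare the treatments. The common biological coefficient of variation was 24.2% over untreated, 20.0% over heat-only and 16.3% over frozen libraries.

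Portions incubated in the same way with organocatalyst and the same kit were compared next. Of 13807 genes tested, 1930 differed between heat-only and catalyst portions (14%), but only 4 were over 2-fold higher and 4 over 2-fold lower in heat-only portions. Without the animal block 123 genes were called. For 5 of the genes shown above, heat-only minus catalyst, Rny1 stood at 0.24 (adjusted p = 0.236), Srsf5 at -0.02 (adjusted p = 0.857), Hsd3b7 at 0.08 (adjusted p = 0.643), Rps27 at -0.15 (adjusted p = 0.171) and Fcgr2b at 0.09 (adjusted p = 0.203). All 7 mitochondrial protein genes were higher without catalyst, with a median of 0.70, for instance mt-Nd1 at 0.69 (adjusted p = 0.000893). Lower without catalyst were 46 of 88 respiratory chain subunits (median -0.16), 35 of 61 secreted plasma protein genes (median -0.17) and 18 of 31 heat shock genes (median -0.18).

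Against frozen liver, heat-only portions differed in 9274 of 13889 genes (66.8%) and untreated portions in 8893 of 13477 genes (66%). Both comparisons use the same 12 frozen libraries, so only their values are set side by side. The small nucleolar RNAs had a median log2 difference from frozen of 2.47 in untreated portions (65 tested, 58 higher) and of 0.05 in heat-only portions (53 tested, 15 higher and 18 lower). The cytosolic ribosomal protein genes had medians of 0.14 and -0.36, the splicing genes -0.23 and 0.13, and the long noncoding RNA list 0.10 and 0.53.

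The sinusoidal endothelial markers had a median of 0.08 in untreated and of -0.47 in heat-only portions relative to frozen. Mitochondrial protein genes had medians of 2.18 and 1.44, and all 7 were above frozen in both states. The secreted plasma protein genes had -0.86 and -0.87, with 50 and 59 of 61 lower than in frozen liver.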

How the data were processed

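Total RNA from 96 liver portions was sequenced after ribosomal RNA depletion with a stranded TruSeq kit on an Illumina HiSeq, per the labels' protocols. The authors deposited whole-number read counts per gene, 47373 genes in 1 table. The submitters' processing notes list the genome builds GRCm38 and mm10 and the tools CASAVA, STAR 2.5 and edgeR, with no role stated. How reads were counted (tool, annotation, strand) is not given in the sources used here. Of the gene IDs 46954 matched GENCODE M21, which gave names, classes and transcript features, and 92 spike-in rows were left out (2 counts over 24 libraries).

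The 12 heat-only and 12 untreated libraries were fitted with edgeR 4.0.16 in R 4.3.3 (quasi-likelihood F test, TMM scaling, filterByExpr by state with a minimum count of 10, animal as a block, Benjamini-Hochberg threshold 0.05). The SE was derived from the F statistic, as |log2 fold change|/sqrt(F). Library totals ran from 1264563 to 12229833 counts, and genes of few counts are the least precise. Same-numbered portions come from the same animal, and their deviations correlated at 0.10 to 0.57 in 12 of 12 pairs. The best match of a heat-only library was its own animal's untreated library in 9 of 12 cases. CPM levels use TMM factors over 36 libraries, frozen included. Composition measures used an exact paired permutation test in Python 3.11.15 with SciPy 1.17.1. A mitochondrial tRNA share replaced the planned mitochondrial ribosomal RNA share, which was not used here.

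Members and gene lists were chosen with earlier results of these data known. Named genes were a fixed set, the 10 largest rises and falls among called genes with a mean of at least 5 CPM in 1 state and the same direction in 12 animals (predicted genes and pseudogenes passed over), and of each list described up to 4 called members by smallest p and up to 2 uncalled ones by highest level. Genes chosen otherwise are named as chosen after their values were seen. The scripts were tested on simulated data. Alternatives were DESeq2 1.42.0, limma 3.58.1 voom, other scalings, no filter, thinning, no block, each treatment alone, each animal left out and, chosen after seeing the data, animal 8A left out with thinning and short and mitochondrial genes left out.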

Additional observations from a re-analysis of the deposited data

Results flagged for a closer look

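In 18 of 172 groups of 6 libraries tested, over 34 genes and 9 measures, 1 library lay far from the other 5, and chance alone gives about 5% of such groups. The untreated control library 8A had the lowest total, 1264563 counts, with the highest long noncoding RNA share, 3.21%, and a Cyp2b10 level of 3.96 CPM that rested on 5 counts. The untreated phenobarbital library 18B had the lowest protein-coding share of its group, 91.9%, and the highest small noncoding RNA share, 5.4%.

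The same 18B library was far above the other 5 for Snord16a at 54.0 CPM, Snora41 at 35.6 CPM, Snord15a at 176 CPM, Snora68 at 59.7 CPM, Snord13 at 117 CPM, Snora21 at 62.8 CPM and Snora28 at 124 CPM. Among heat-only control libraries, 90C was highest for Snord13 at 5.99 CPM and Snora28 at 5.15 CPM, 21C was highest for Cyp2e1 at 3966 CPM and lowest for Actb at 701 CPM, and 82B was highest for Cyp2b10 at 0.478 CPM. The untreated control library 8C was highest for Gapdh at 116 CPM.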

How the results depend on the processing

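The count of 7420 genes was 6222 without the replicate block, 7541 with DESeq2, 7966 with voom, 7422 with RLE scaling, 7630 with no filter, 6181 in control animals and 6979 to 7751 with 1 animal left out. It fell to 4346 (2189 higher, 2157 lower) with libraries thinned to the lowest total, where only 9052 genes were tested, against 13283 in the main fit. In phenobarbital animals it fell to 4185 (2102 and 2083). Library totals alone gave 5896 higher and 1974 lower. Among genes called in both, 0 changed direction under any alternative, but the alternatives reuse the same libraries. The heat-only against catalyst count of 1930 was 123 without the block that pairs portions by animal. Thinned, 5515 of 8787 genes tested differed between untreated and frozen, and with no filter 14 genes passed the interaction test.

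Library totals turned the log2 fold change of Cyp2e1 to 0.0489, Cyp3a11 to 0.0474, Rpl7 to 0.0305, Hspa8 to 0.0905, Prpf8 to 0.0864, Col3a1 to 0.0128 and Hnrnpc, the 1 called gene among them, to 0.00865. In phenobarbital animals mt-Co1 was at 0.18, Atp5b at -0.0272, Stab2 at -0.11 and Clec4f at -0.0344, and in control animals Scarna2 was at 0.0301.

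Without the block the top-10 share, -2.15 points, and the distance from frozen, -0.0476, passed the threshold. With mitochondrial genes left out the totals (1774299 counts) and top-10 share (-1.69) passed, and the protein-coding share turned to 0.0408. In control animals totals (2654069), the mitochondrial share (-3.61), the top-10 share (-3.79) and the distance (-0.0803) passed and the lncRNA share (0.939) did not. In phenobarbital animals the mitochondrial share (0.344) and protein-coding share (0.151) turned, and mitochondrial tRNA (-0.00822), genes detected (730), lncRNA (0.806) and small RNA (-1.21) missed it. The cause was not tested, beyond the smaller number of animals. With 1 animal left out, differences ran from 1165175 to 2167212 for totals, -2.68 to -1.14 for the mitochondrial share, -0.0109 to -0.00878 for mitochondrial tRNA, -2.90 to -1.83 for the top-10 share, 773 to 874 for genes detected, -0.289 to 0.221 for protein-coding, 0.781 to 0.998 for lncRNA, -1.27 to -0.897 for small RNA and -0.0626 to -0.0362 for the distance.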
